A study of Homo sapiens with 6 samples.

Results

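GDF15 (growth differentiation factor 15) was taken as 1 gene of the 58735 in a count table made from T47D cells. It was chosen by its count values, which earlier results of these data placed among the largest differences between the groups, so its own difference is described here without a test. T47D is an established human breast cancer line of luminal type that carries the estrogen and progesterone receptors. The series title names PM2.5, the fine fraction of particles in air, and breast cancer progression. It holds 6 RNA sequencing libraries, 3 of control cells (titled CK) and 3 of treated cells (titled CQ). The design text names the treatment only as experimental, and the extraction protocol, worded alike for both groups, sets RNA extraction at 48 h of PM2.5 exposure. The CQ libraries are called exposed here on that ground. The sources used here do not give the particle dose, the vehicle of the controls or whether replicates were separate cultures, so the p-values measure only the spread between these samples. All 6 libraries come from 1 cell line.

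GDF15 is a secreted, distant member of the TGF-beta superfamily. It is made as a precursor that dimerises and is cut by proprotein convertases before release, and the circulating dimer acts in the hindbrain through the receptor GFRAL with its partner RET, where it lowers appetite. Most cells keep the gene low and switch it on during stress, through the transcription factors ATF4 and CHOP of the integrated stress response and through others. Many carcinomas, breast carcinoma among them, secrete it.

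The table gave GDF15 (ENSG00000130513) as a protein-coding gene on chromosome 19, from 18374731 to 18389176 on the plus strand in GRCh38, with a length of 2087 bases. That length is the union of the exons of 5 transcripts in GENCODE 29. The main coding transcript, GDF15-201, starts at 18386158 and has 2 exons with 1200 bases in all, and the other 4 transcripts run from 294 to 890 bases. Of the other genes in the table, 1 overlapped the GDF15 span, the microRNA gene MIR3189, which lies in the intron of GDF15-201. No other gene of the table, antisense genes included, shares that span.

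The mature microRNAs of this intron are shown because their hairpin was the feature that overlaps GDF15. Their RefSeq sequences (GRCh38.p14, plus strand) are given with the seed, bases 2 to 8, in capitals.
hsa-miR-3189-5p: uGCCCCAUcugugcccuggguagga
hsa-miR-3189-3p: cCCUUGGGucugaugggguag
Neither seed is shared with another of the 2545 mature microRNAs in the RefSeq table. The hairpin at chr19:18386562-18386634 had 0 counts in each control library and 3, 3 and 4 counts in exposed replicates 1 to 3. A count of 0 allows up to 3 counts in a library, so both groups lay near that limit and no fold is given. Hairpin RNA and unspliced GDF15 RNA cannot be told apart at this position.

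The start region of GDF15 was read for short motifs in the RefSeq window from 250 bases before to 50 bases after the start at 18386158. The stretches below hold the matches found, in capitals.
GDF15 TATA box, chr19:18386119-18386144: gtccggggacTATAAAggccggtccg
GDF15 GC box, motif on the minus strand, chr19:18386029-18386054: cccccagaccCCGCCCagctgtggtc
GDF15 GC box, motif on the plus strand, chr19:18386078-18386103: agggggaggaGGGCGGgactgagcag
The TATA box (TATAAA) began 29 bases before the start, and 11.5% of 35116 windows of the same 300 bases hold those letters on either strand. GC boxes (GGGCGG), the letters bound by SP1, began 119 and 70 bases before the start, and 45.0% of windows hold at least 1. None of the other letters searched on both strands was in the window. These were TGATGCAA of the amino acid response element (0.866% of windows), TGACGTCA of the cAMP response element (1.85%), TGANTCA of AP-1 sites (7.71%), the E-box CACGTG (7.26%), the core GCGTG of xenobiotic response elements (36.5%), TGACNNNGC of antioxidant response elements (13.3%) and GCGGGGGCG of EGR1 sites (5.07%). Among the ATF4 and CHOP targets described below, 3 of the 20 with a window held the amino acid response element, and their stretches show the letters that were not found in the GDF15 window. All stretches are printed as the plus strand, and a motif on the minus strand appears as its reverse complement.
CEBPG, motif on the plus strand, chr19:33374061-33374088: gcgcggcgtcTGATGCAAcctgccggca
CHAC1, motif on the minus strand, chr15:40953252-40953279: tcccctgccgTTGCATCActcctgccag
HERPUD1, motif on the minus strand, chr16:56931956-56931983: acgcggcgggTTGCATCAgcccgtgccc
A match is a run of letters and no measured site, and motifs outside this window were not searched. Only the letters given were searched, so variant forms of these elements inside the window would be missed as well.

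GDF15 was low in every control library and high in every exposed library. Control replicates 1 to 3 held 126, 201 and 149 counts, and exposed replicates 1 to 3 held 4796, 4435 and 4579. In CPM (counts scaled to a common library size with TMM factors) the controls stood at 3.38, 5.79 and 4.09 and the exposed libraries at 141, 143 and 127. The groups did not overlap, and the lowest exposed library lay far above the highest control. Group ranges did not overlap for 51.9% of all 17337 genes tested, with the exposed libraries above for 25.5%. The means were 4.42 ± 1.24 and 137 ± 8.88 CPM (SD, n = 3 per group), and the fitted log2 fold change was 4.96 ± 0.13 (SE), or 31.1-fold. Leaving out 1 library at a time moved that value between 4.80 (without control replicate 1) and 5.20 (without control replicate 2). The RNA came from bulk cultures, in which more cells with GDF15 RNA and more of it per cell cannot be told apart.

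In deposited counts, 1 in 285912, 172620 and 236011 counts of control replicates 1 to 3 belonged to GDF15, and 1 in 7475, 6983 and 8054 of exposed replicates 1 to 3. Per kilobase of gene length the level was 2.12 ± 0.594 CPM per kb in controls and 65.7 ± 4.25 CPM per kb in exposed cells (SD, n = 3 per group). On that scale GDF15 stood at place 7823 to 9422 of 19951 protein-coding genes in the control libraries and at place 582 to 682 in the exposed libraries. It moved from the middle of that order to near its top. Should all reads come from the shorter transcript GDF15-201, the control levels would be 2.81 to 4.82 CPM per kb and the exposed levels 106 to 119.

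The control libraries differed from each other more than counting alone gives. The coefficient of variation of GDF15 was 28.0% in controls, against 7.94% from counting error at that depth, and control replicate 2 was 1.71 times control replicate 1. Of 984 tested genes within 1.25-fold of the control level of GDF15, 97.0% had a smaller coefficient of variation, with a median of 12.6%. The exposed libraries lay closer together: the coefficient was 6.47%, which was still above the 1.47% from counting error. Of 851 genes of like level, 72.5% had a smaller coefficient of variation, with a median of 4.94%.

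Set among other genes, GDF15 had the third largest log2 difference among the 14195 tested genes whose mean reached 1 CPM. The genes above it were CYP1A1, the classic target gene of AHR and a P450 enzyme (log2 10.39), and GCNT3, a mucin-type glycosyltransferase (5.09). Next below came the metallothionein MT1M (4.49) and DDIT3, which encodes CHOP (3.78). In exposed cells CYP1A1 reached 2122 ± 95.9 CPM, DDIT3 149 ± 12.8, MT1M 52.3 ± 1.61 and GCNT3 3.89 ± 0.867 CPM (SD, n = 3), values that set no order of levels because they are not divided by gene length. By the difference in CPM rather than the ratio, GDF15 was at place 144 of the same 14195 genes, with 133 CPM. Of all 17337 genes tested, 6 (0.0346%) had a log2 fold change of at least that of GDF15, itself included, and 25 (0.144%) one of at least 3.

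**Figure D1:**
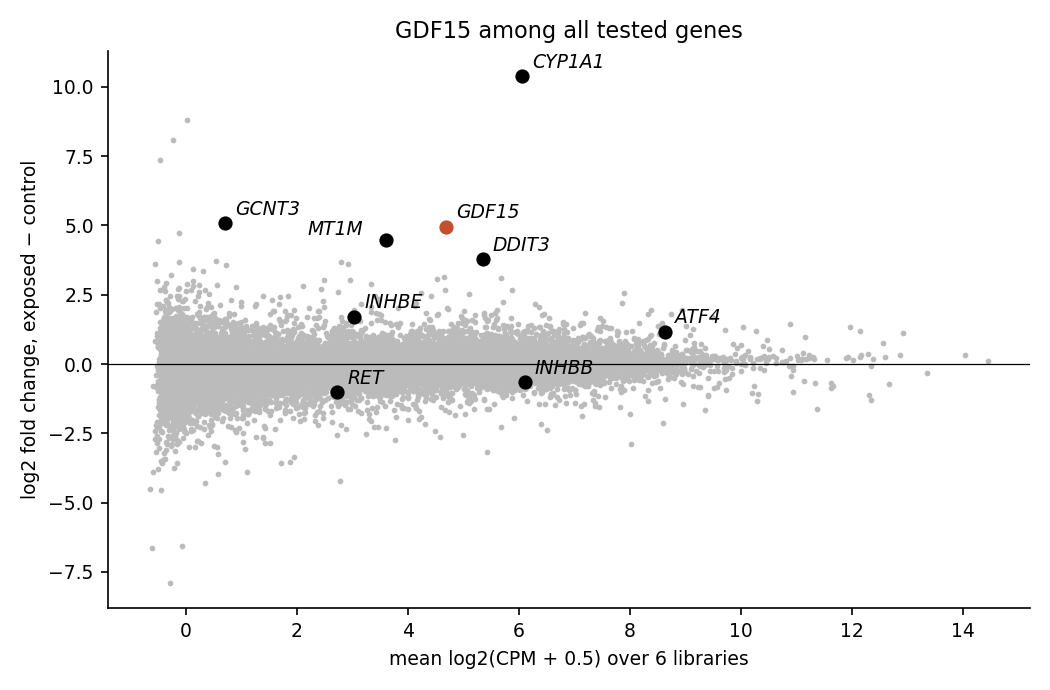
Log2 fold change of exposed against control cells (vertical axis) by mean log2(CPM + 0.5) over the 6 libraries (horizontal axis), 1 point per tested gene, with GDF15 in red and 8 other named genes in black. GDF15, chosen for its large difference, stands at 4.96, with CYP1A1 above it at 10.39 and DDIT3 below it at 3.78.

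Likeness of pattern was measured as the root mean square difference over the 6 libraries of log2(CPM + 0.5), each gene centred on its control mean. The 8 most similar of these genes were MT1M (difference 0.48), DDIT3 (0.78), AKR1C2 (1.05), DUSP13 (1.13), MT1X (1.27), HMOX1 (1.28), UNC5B (1.32) and AKR1C1 (1.43). They encode metallothioneins that bind metals (MT1M, MT1X), aldo-keto reductases (AKR1C1, AKR1C2), a stress transcription factor (DDIT3), a phosphatase (DUSP13), heme oxygenase (HMOX1) and a netrin receptor (UNC5B). Metallothionein and AKR1C genes are near-identical copies, so their reads may have been split between family members. As for GDF15, control replicate 2 was the highest control for 5 of the 8 genes, DDIT3, AKR1C2, HMOX1, UNC5B and AKR1C1. For HMOX1 the centred log2 values of control replicates 2 and 1 were close, at 0.082 and 0.065. The measure includes the control libraries, so a shared order of controls is partly built into the choice of genes. Control replicate 2 was the highest control for 37.9% of all other tested genes. DDIT3 counts were 330, 509 and 333 in the controls, by replicate number, against 5550, 4377 and 5093 after exposure. The MT1M controls lay close together at 90, 81 and 81 counts, and its exposed libraries held 1831, 1569 and 1888. With GDF15 chosen for its size, the measure mainly finds other genes with large differences. Between 7 and 8 of the 8 genes were shared when 1 library was left out.

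**Figure D2:**
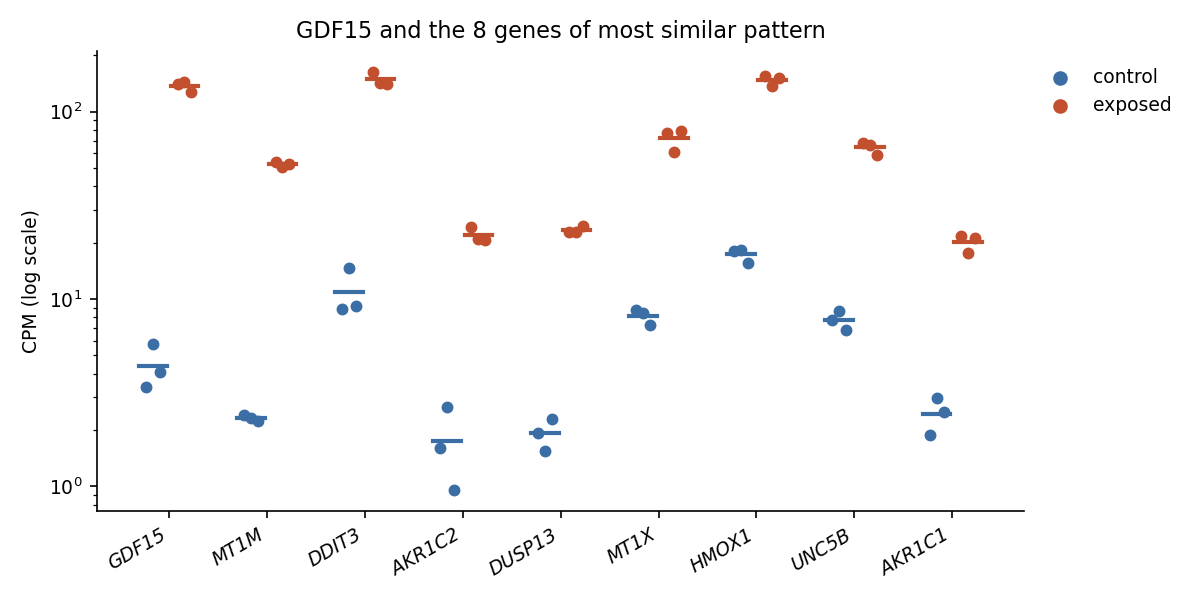
CPM on a log axis for GDF15 and the 8 genes with the most similar pattern, with 1 point per library (control blue, exposed red, replicates 1 to 3 from left to right) and a bar at each group mean. In each gene the 3 exposed libraries lie above the 3 controls, and control replicate 2 is the highest control for GDF15, DDIT3, AKR1C2, HMOX1, UNC5B and AKR1C1.

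Ligands of the TGF-beta superfamily, the family of GDF15, mostly did not share its direction. Of 32 other ligands 13 were abundant enough to test, and 1 was higher and 4 were lower in edgeR's quasi-likelihood test (Benjamini-Hochberg adjusted p under 0.05). Over all 17337 genes tested 21.8% were called higher and 22.1% lower (43.9% in all), so the ligands' 5 of 13 is close to that background. Their median log2 fold change was -0.17, and that of all tested genes -0.02. The ligand that rose was INHBE, the activin beta E subunit, from 181, 151 and 127 counts in controls to 517, 433 and 442 in exposed libraries (log2 1.71 ± 0.14, SE, adjusted p = 2.4e-11). The groups did not overlap for INHBE.

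The ligands that fell were INHBB, the inhibin and activin beta B subunit, at -0.66 ± 0.08 (log2, SE, adjusted p = 3e-08), GDF11, a close relative of myostatin, at -0.55 ± 0.09 (adjusted p = 4.6e-06), TGFB2, and AMH, the anti-Müllerian hormone, at -0.63 ± 0.12 (adjusted p = 4.6e-05). AMH was named after its values were seen. TGFB2, a TGF-beta ligand, held 56, 44 and 40 counts in controls and 0, 1 and 0 in exposed libraries. It passed the count filter only through the controls, so its call as lower is no independent support. TGFB1 and BMP4 stood at -0.18 ± 0.11 and 0.08 ± 0.10 and did not pass (adjusted p = 0.16 and 0.55). Of the 19 ligands not tested, 9 had no count in any library.

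Per kilobase of gene length GDF15 moved from place 7 to place 1 among the 33 ligands. In controls the order was INHBB (26.8 CPM per kb), TGFB1 (9.83), BMP4 (7.85), GDF11 (6.76), AMH (6.07), TGFB3 (4.82) and then GDF15 (2.12). BMP8B followed at 2.10, and its control libraries (1.88 to 2.36) overlapped those of GDF15 (1.62 to 2.77), so these neighbours did not differ beyond their spread. BMP8B and BMP8A are near-identical copies and may share reads. In exposed cells GDF15 (60.8 to 68.7 CPM per kb) lay above INHBB (16.4 to 17.7), TGFB1 (7.12 to 9.41) and BMP4 (7.24 to 9.05), and the last pair overlapped. GDF15 made up 2.27%, 3.92% and 2.78% of the summed per-length level of the 33 ligands in control replicates 1 to 3. In exposed replicates 1 to 3 its share was 53.6%, 56.3% and 52.0%, while the sum of the other 32 went from 68.0 to 69.5 CPM per kb in controls to 53.3 to 58.5 in exposed libraries.

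**Figure D3:**
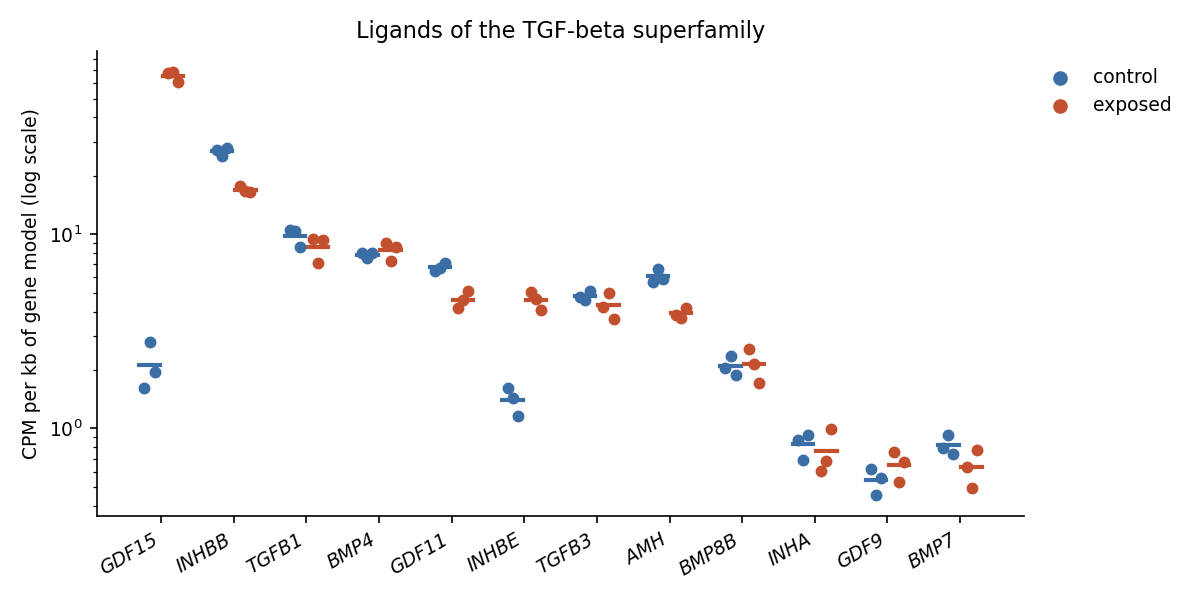
Level per kilobase of gene model (CPM per kb, log axis) of the 12 TGF-beta superfamily ligands with the highest exposed level, with 1 point per library (control blue, exposed red, replicates 1 to 3 from left to right) and a bar at each group mean. GDF15 goes from a mean of 2.12 to 65.7, INHBE from 1.40 to 4.58, and INHBB from 26.8 to 16.9.

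The receptor of GDF15 was not detected in these cells. GFRAL had 0 counts in all 6 libraries, which allows a level of up to 0.0813 to 0.0969 CPM of the total counts, by library, for counting error only. Its signalling partner RET, a receptor tyrosine kinase also used by the GDNF family, fell from 335, 312 and 295 counts to 137, 124 and 171 (log2 -1.02 ± 0.15, SE, adjusted p = 1.2e-06). GFRA1, the co-receptor through which GDNF reaches RET, fell further, from 635, 512 and 526 counts to 105, 62 and 144 (-2.33 ± 0.17, adjusted p = 1.2e-12). Neither gene's groups overlapped, as was so for 51.9% of all tested genes. ARTN, which encodes the GDNF-family ligand artemin, rose by 0.96 ± 0.12 (adjusted p = 5.9e-08). PSPN, the ligand persephin, was lower at -0.49 ± 0.18 (adjusted p = 0.025, range over the settings tried 0.0024 to 0.22). The PSPN call ended without control replicate 1 (adjusted p = 0.090) or 3 (0.070) and without exposed replicate 2 (0.051) or 3 (0.22). Of 10 genes of this receptor and ligand group 6 were tested, 1 rose and 3 fell, and the median log2 fold change was -0.36. The share called among all tested genes was 43.9%. Between 2 and 3 genes of the group fell when 1 library was left out.

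Of 21 genes of convertases, signal peptidase and disulfide formation 17 were tested, 3 rose and 3 fell, with a median of 0.01, beside 43.9% called over all tested genes. FURIN, the convertase best known for cutting TGF-beta family precursors, held 2401, 2366 and 2237 counts in controls and 2207, 1909 and 2219 in exposed libraries, with overlapping CPM (log2 -0.04 ± 0.08, adjusted p = 0.69). PCSK6, another convertase, was lower at -0.50 ± 0.15 (adjusted p = 0.0054), a call that ended without exposed replicate 2 (adjusted p = 0.053, range 0.0036 to 0.053). PCSK5 had 0 to 2 counts in each library and was not tested. PDIA4, a disulfide isomerase, rose by 0.54 ± 0.07 (adjusted p = 3.2e-07). The disulfide isomerase P4HB was at 0.26 ± 0.08 (adjusted p = 0.0096) and the signal peptidase subunit SPCS3 at -0.34 ± 0.10 (adjusted p = 0.0055). P4HB did not pass without control replicate 3 or exposed replicate 1 (adjusted p = 0.091 and 0.051, range 0.0011 to 0.091), and SPCS3 did not pass without exposed replicate 1 (0.059, range 0.0013 to 0.059). Without exposed replicate 1 the number of these genes that fell was 1.

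Of 22 transcription factors with reported action on the GDF15 gene 21 were tested, 14 rose, 4 fell and 3 did not pass, with a median log2 fold change of 0.53. Over all tested genes 21.8% were called higher and 22.1% lower. The list was drawn up with earlier results of these data known, so its counts are not independent evidence of direction. Among factors of the integrated stress response, DDIT3 rose by 3.78 ± 0.20 (adjusted p = 5.3e-06), ATF3 by 1.56 ± 0.11 (8.9e-13), CEBPB by 1.43 ± 0.10 (4.8e-12) and ATF4 by 1.17 ± 0.08 (1.6e-13). ATF4, whose protein is controlled mainly through translation, went from 263 ± 24.9 to 592 ± 23.3 CPM (SD, n = 3 per group). TFE3 and TFEB, regulators of lysosomal genes, rose by 1.22 ± 0.07 and 0.69 ± 0.10, NFE2L2, which encodes NRF2, by 0.75 ± 0.09, and KLF4 by 0.86 ± 0.10. SP1, the GC-box factor, and AHR, the aryl hydrocarbon receptor, each rose by 0.53, with SE 0.07 and 0.12. All 6 had adjusted p-values of 0.00087 or less.

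The factors that fell included EGR1, an immediate early factor, from 60, 50 and 81 counts to 24, 16 and 12 (-1.76 ± 0.35, adjusted p = 1.1e-04), and the estrogen receptor gene ESR1 at -1.31 ± 0.08. These are RNA levels of factors, and their binding to GDF15 was not measured.

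**Figure D4:**
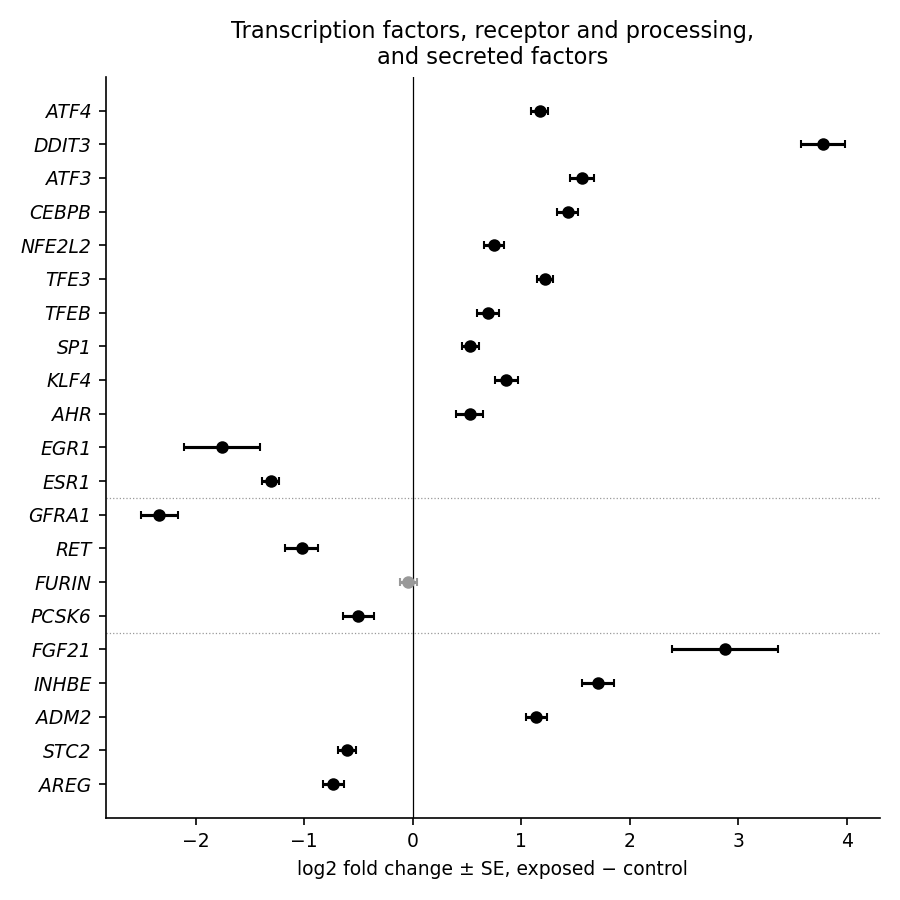
Log2 fold change of exposed against control cells with its SE (horizontal axis) for 12 transcription factors, 4 receptor and processing genes, and 5 secreted factors, divided by dotted lines, with genes that did not pass the test in grey. DDIT3 lies farthest to the right at 3.78, GFRA1 farthest to the left at -2.33, and FURIN in grey at -0.04.

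Genes of eIF2 control moved both ways. The list holds eIF2 alpha, its kinases, exchange factor and phosphatase subunits, and genes that relay mitochondrial stress. Of 14 genes tested 3 rose and 5 fell, with a median of -0.01, beside 43.9% called among all tested genes. PPP1R15A and PPP1R15B, which direct the phosphatase to eIF2 alpha, rose by 1.32 ± 0.10 and 0.68 ± 0.08 (adjusted p = 9.9e-13 and 3.4e-08). PPP1R15A is also counted among the ATF4 and CHOP targets below. EIF2AK2, the kinase activated by double-stranded RNA, was at -0.79 ± 0.09 and EIF2B5, a catalytic subunit of the exchange factor, at -0.51 ± 0.08 (adjusted p = 1e-08 and 2.4e-06). The number that fell was 3 without control replicate 1, control replicate 3, exposed replicate 2 or exposed replicate 3.

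Genes that ATF4 and CHOP are known to induce were mostly higher. All 22 were tested, 16 rose and 2 fell, and their median log2 fold change was 1.32. The shares among all tested genes were 21.8% higher and 22.1% lower. ATF3, CEBPB, PPP1R15A and STC2 are each counted in another list as well. SLC7A11, the cystine transporter, rose by 2.19 ± 0.10 (adjusted p = 2.8e-17), NUPR1, a stress-induced chromatin protein, by 1.79 ± 0.09 (4.6e-17), HERPUD1, of endoplasmic reticulum degradation, by 1.75 ± 0.08 (5.5e-18) and PCK2, the mitochondrial phosphoenolpyruvate carboxykinase, by 1.32 ± 0.08 (5.8e-15). STC2 (-0.61 ± 0.08) and ATF5 (-1.47 ± 0.11) fell, ATF5 being named after its values were seen. These genes were chosen with their behaviour in these data known, so the count is not independent evidence of its direction.

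Other secreted factors of cell stress moved both ways. Of 25, 18 were tested, 6 rose and 4 fell, and the median was 0.44. Among all tested genes 21.8% were called higher and 22.1% lower. FGF21, a metabolic hormone released under the integrated stress response, held 6, 8 and 2 counts in controls and 42, 32 and 38 in exposed libraries (log2 2.88 ± 0.49). FGF21 passed the count filter only through the exposed libraries, where it is high. Its call as higher is therefore no independent support, and its p-value is left out. ADM2, an adrenomedullin-related peptide, rose by 1.14 ± 0.10 (adjusted p = 2.2e-11), and INHBE is in this list as well. AREG, an EGF receptor ligand, fell by 0.73 on the log2 scale (SE 0.10, adjusted p = 2.3e-07), and STC2, a stanniocalcin, was at -0.61 ± 0.08 (adjusted p = 3.1e-07). FGF21, with a mean of 1.11 ± 0.112 CPM in exposed cells (SD, n = 3), remained a scarce transcript.

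Of 16 mitochondrial proteases and chaperones, whose failure is one known trigger of GDF15, 6 rose and 1 fell, with a median of 0.13, a share close to the 43.9% called over all tested genes. HSPA9, the mitochondrial HSP70, rose by 0.90 ± 0.07, the protease gene LONP1 by 0.77 ± 0.08, PINK1, a kinase that marks damaged mitochondria, by 0.69 ± 0.11, and CHCHD10 by 0.37 ± 0.08 (adjusted p = 1.2e-11, 1.3e-09, 7.2e-06 and 5.3e-04). The member that fell, the chaperonin cofactor HSPE1 (-0.37 ± 0.12, adjusted p = 0.014, named after its values were seen), did not pass without control replicate 3, exposed replicate 1 or exposed replicate 2, which left a count of 0.

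Genes around GDF15 on chromosome 19 showed no change of its size. The table holds 38 other genes that come within 250 kb of the GDF15 span, 18 of them tested, of which 7 rose and 3 fell, with a median of 0.16. The share called among all tested genes was 43.9%, with 21.8% higher and 22.1% lower. The nearest tested gene upstream, PGPEP1 (a peptidase), ends 4781 bases before the GDF15 span and rose by 0.65 ± 0.09 (log2, SE, adjusted p = 2.6e-07), from 1317, 1318 and 1217 counts to 1790, 1825 and 1992. The nearest gene downstream, LRRC25, lies 1968 bases away, with 0 to 2 counts in each library, and was not tested. The groups did not overlap for PGPEP1, yet its fold was small beside that of GDF15.

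Farther out, but within 100 kb, JUND, an AP-1 factor, rose by 1.30 ± 0.08 (adjusted p = 5.2e-14), ISYNA1, which makes inositol phosphate, was at -0.41 ± 0.08 (8.2e-05) and SSBP4 at -0.27 ± 0.09 (0.012). LSM4, an RNA-binding protein gene, and ELL, an elongation factor, stood at -0.02 ± 0.08 and -0.21 ± 0.10 and did not pass (adjusted p = 0.89 and 0.088). ELL passed without control replicate 3 (-0.29, adjusted p = 0.041, range 0.041 to 0.29). SSBP4 did not pass without control replicate 2 (adjusted p = 0.069), exposed replicate 2 (0.052) or exposed replicate 3 (0.058, range 0.0074 to 0.069). In each of those 3 cases the number of neighbours that fell was 1. The other 7 genes within 100 kb were not tested: MIR3189, described above, MIR3188, RPL39P38, RN7SL513P and AC010335.1 had few counts, and AC010335.2 and AC010335.3 had none.

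**Figure D5:**
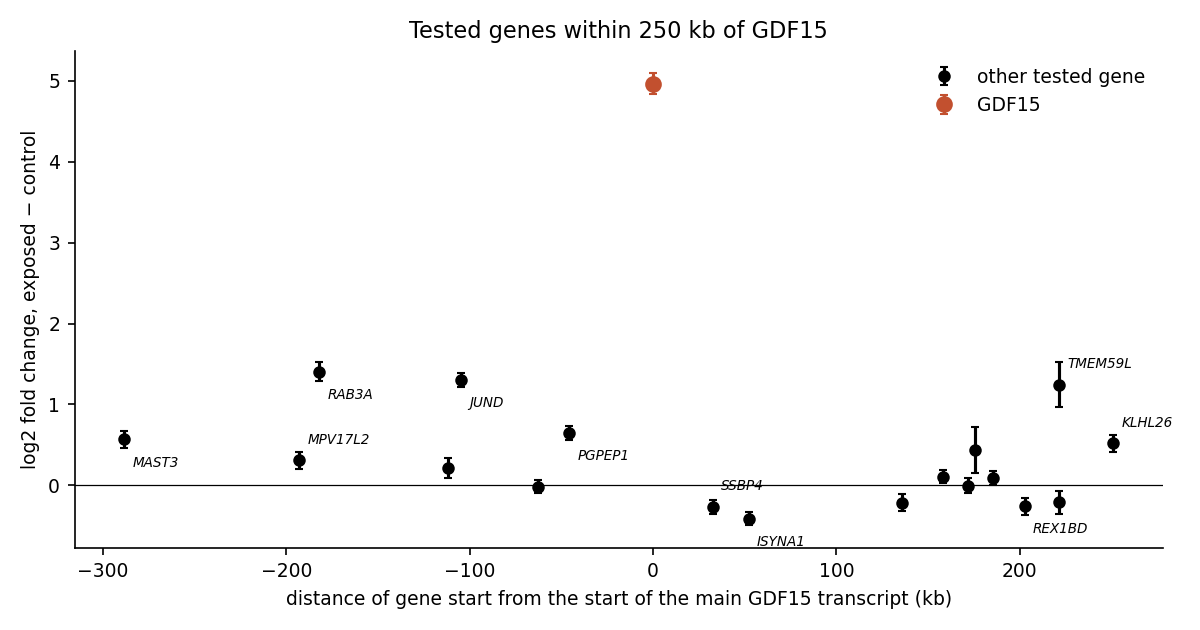
Log2 fold change with its SE (vertical axis) of the 18 tested genes within 250 kb of GDF15 (black) and of GDF15 (red), by the distance of each gene's start from the start of the main GDF15 transcript in kb (horizontal axis), with the genes that passed the test named. GDF15 stands at 4.96, and the neighbours lie between ISYNA1 at -0.41 and RAB3A at 1.41.

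Total counts ran from 30970218 to 36878525 per library. The luminal markers were present, with KRT8 at 8154 ± 553 CPM in controls and 3301 ± 400.1 in exposed cells (SD, n = 3 per group). Of 10 luminal markers 9 were tested, 6 fell and 0 rose, beside 22.1% called lower and 21.8% higher among all tested genes. EPCAM, GATA3 and CDH1, named after their values were seen, did not pass (log2 0.02, 0.04 and 0.08). TFF1 had too few counts to test. The members with the smallest adjusted p were PGR, lower by 1.46, ESR1 by 1.31, KRT8 by 1.30 and KRT18 by 1.06 on the log2 scale. Of 18 markers of other cell types 6 were tested, 1 rose (the collagen gene COL1A2, 0.96 ± 0.36, adjusted p = 0.033) and 1 fell. Those that rose numbered 0 without exposed replicate 1 or 2 and 2 without control replicate 2 or exposed replicate 3, and those that fell numbered 0 without control replicate 2. Their part in the GDF15 level was not tested. The summed level of the 18 was 69.9 to 78.7 CPM in controls and 80.3 to 83.3 in exposed libraries, most of it from COL1A1. CGA, a hormone subunit, had no count, and the macrophage markers CD68, CD163 and LYZ had 0 to 2 counts in each library.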

How the data were processed

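RNA sequencing of 6 T47D libraries was analysed from the authors' deposited table of whole-number read counts per gene, made against GRCh38 per the submitters' processing notes. RNA was extracted with TRIzol and libraries were made with a NEBNext Ultra kit, per the labels' protocols. The sources used here name no aligner, counting tool, annotation or strand setting. All 58735 gene IDs were found in GENCODE 29 with the same start, end and strand. Per the file headers, the table also gives a gene length, an other value used only for levels per kilobase. Groups and replicate numbers came from the titles. No libraries were identical: chi-square per degree of freedom between replicates was 7.11 to 14.9.

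The count test was edgeR 4.0.16 in R 4.3.3 (filterByExpr with minimum count 10 and minimum total 15, 17337 genes, TMM, robust quasi-likelihood fit, Benjamini-Hochberg adjusted p under 0.05). The SE is the log2 fold change divided by the square root of F. The code was tested on simulated data. GDF15 and the gene lists were chosen with earlier results of these data known. Lists were described by counts and medians. The text names GDF15, MIR3189 and preset pathway genes (receptor, convertases, factors, hormones) whatever their result, from the lists reported up to 4 by smallest adjusted p, the 5 highest ligands, genes within 100 kb, the 8 most similar in pattern and the nearest 2 on each side by fold. Alternatives were DESeq2 1.42.0, limma-voom (limma 3.58.1), DESeq2-type size factors, no or a stricter filter (1 CPM in 3 libraries), the replicate number as a block and leaving out each library. Some results that these choices call for are not reported here.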

Additional observations from a re-analysis of the deposited data

How the results depend on the processing

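The log2 difference of GDF15 stayed between 4.80 and 5.20 over 12 alternative settings. Leaving out libraries gave 3164 to 3860 genes higher and 3098 to 3777 lower, against 3778 and 3832. Deviations of same-numbered libraries from their group means correlated at -0.074, -0.080 and 0.0055. The largest correlation was 0.122, between control replicate 2 and exposed replicate 1. With 3 libraries per group, these values cannot settle whether same-numbered libraries shared a culture or day. With the replicate block 3359 genes were higher and 3420 lower, no marker of other cell types was higher (0 in place of 1), and the call of COL1A2 was lost. Without a low-count filter 2 markers of other cell types rose. Those markers numbered 2 in DESeq2 and 0 under the stricter filter. Without division by length GDF15 stood at place 9 rather than 7 among ligands in controls.

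When each library was left out in turn, the genes that fell numbered 1 to 3 for processing enzymes, 3 to 6 for the eIF2 genes, 0 to 1 for mitochondrial genes and 1 to 4 for the neighbours of GDF15. Markers of other cell types that rose numbered 0 to 2 and those that fell 0 to 1. LSM4, which was not called, ranged from -0.070 to 0.063 and changed sign, and the cause was not tested. Of the alternative values for the main results reported here 291 were labelled the same and 21 moved. The label covers counts within a set fold of the main count and a GDF15 difference within its SD, not only equal values. For example, 3164 genes higher without control replicate 3, against 3778, was labelled the same. MIR3189, GFRAL and PCSK5 had too few counts to test, and the part of depth in this was not tested. Similarity of pattern was not run under DESeq2, limma-voom or the block, which give no separate levels.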

Other observations

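Control replicate 2, the control with the most GDF15, was the highest control for 38% of all 17336 other tested genes. Its share was 72% of the 18 tested neighbours of GDF15, 64% of the 22 ATF4 and CHOP targets, 61% of the 18 secreted factors and 57% of the 21 transcription factors, and 23% of the 13 other ligands. For the other lists reported it ran from 33% (luminal markers) to 50% (markers of other cell types among them), with 36% of the eIF2 genes. Some genes are in more than 1 list, so these shares are not separate. Exposed replicate 1 was the highest exposed library for 35% of all other tested genes, 67% of the neighbours, 57% of the 14 eIF2 genes, 52% of the transcription factors and 45% of the ATF4 and CHOP targets, while GDF15 was highest in exposed replicate 2. For the other lists reported the share of exposed replicate 1 ran from 0% (markers of other cell types) to 50% (the group of RET and the GDNF family). This comparison was chosen after the values were seen, rests on 3 libraries per group and was not tested.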
